A study of Mus musculus with 12 samples.

Results

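Nodal, Lefty1, Lefty2, Tdgf1, Smad7, Id1, Id2, Id3 and Bmp4 are 9 genes of the Nodal and bone morphogenetic protein (BMP) signalling pathways, chosen by name among the 26061 genes of the table. They were chosen with earlier results of these data known. Their transcripts were measured by poly(A)-selected RNA-seq in mouse embryonic stem cells (ESCs) that lack endogenous TET2, a DNA-oxidising enzyme, and were rescued with a PiggyBac construct. The construct carried either wild-type (WT) TET2 or a catalytic mutant (H1304Y, D1306A). Each rescue line was grown without feeders and with LIF, either in 2i medium, which holds the MEK inhibitor PD0325901 and the GSK3 inhibitor CHIR99021 (naïve ESCs), or in fetal bovine serum (primed ESCs), with 3 libraries in each of the 4 groups. Cells of every group carried the Tet2 KO and were infected with the lentiviral shRNA against Setdb1 (shSetdb1) and selected with puromycin, so all values below are from SETDB1-depleted cells. Cells that kept SETDB1 were not analysed here. Whether each rescue line is a clone or a pool, and which promoter drives the construct, are not given in the sources used here.

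Nodal and the BMPs are secreted ligands of the TGF-beta superfamily. Nodal signals through activin receptors with the co-receptor encoded by Tdgf1 (Cripto), phosphorylates SMAD2 and SMAD3, and induces its own antagonists, Lefty1 and Lefty2. BMP4 signals through other receptors to SMAD1, SMAD5 and SMAD9 and induces the Id genes, whose products bind E proteins and keep them from DNA, while SMAD7 is an intracellular inhibitor of both branches. In mouse ESCs grown with LIF, BMP or serum sustains self-renewal through Id genes, and 2i medium replaces both.

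The sequences upstream of 4 of the genes are shown because Id2, Id3 and Bmp4 moved together between media, while Nodal moved little. Of the 9 genes, 5 matched the RefSeq promoter table of GRCm38.p6. Each run holds the 250 bases before the transcription start, 5′ to 3′ on the gene's strand, in lower case. They lie at chr12:25096093-25096342 on the minus strand (Id2), chr4:136143572-136143821 on the plus strand (Id3), chr14:46390670-46390919 on the minus strand (Bmp4) and chr10:61417722-61417971 on the plus strand (Nodal). Capitals mark the match to GGCGCC, a GC-rich element bound by BMP-activated SMADs.
Id2: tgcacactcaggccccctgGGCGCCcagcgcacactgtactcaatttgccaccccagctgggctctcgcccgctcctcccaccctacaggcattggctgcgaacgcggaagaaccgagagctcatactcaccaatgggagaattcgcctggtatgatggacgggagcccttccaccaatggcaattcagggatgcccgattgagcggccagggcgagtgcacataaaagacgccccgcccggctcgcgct
Id3: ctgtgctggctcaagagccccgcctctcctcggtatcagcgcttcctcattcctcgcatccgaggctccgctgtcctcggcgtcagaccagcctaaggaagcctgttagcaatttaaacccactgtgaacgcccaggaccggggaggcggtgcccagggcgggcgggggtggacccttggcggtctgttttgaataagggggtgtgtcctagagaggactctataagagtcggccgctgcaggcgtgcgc
Bmp4: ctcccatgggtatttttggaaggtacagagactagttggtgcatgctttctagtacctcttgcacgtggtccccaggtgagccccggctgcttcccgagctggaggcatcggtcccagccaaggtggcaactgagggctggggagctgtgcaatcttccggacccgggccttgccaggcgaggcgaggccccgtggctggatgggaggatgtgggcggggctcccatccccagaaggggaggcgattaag
Nodal: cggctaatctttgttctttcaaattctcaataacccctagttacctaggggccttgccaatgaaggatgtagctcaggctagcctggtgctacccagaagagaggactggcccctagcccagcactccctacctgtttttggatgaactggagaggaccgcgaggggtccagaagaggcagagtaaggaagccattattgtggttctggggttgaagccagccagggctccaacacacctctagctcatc
GGCGCC reads the same on both strands, and among the 5 matched genes, which also include Tdgf1, it was found in Id2 alone, starting at position -231 from the transcription start. Of 32851 promoter windows of the same length in the table, 9.59% held it. The SMAD palindrome GTCTAGAC (0.167% of windows) and the FOXH1 element AATCCACA (0.718% of windows, both strands searched) were in none of the 5.

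The expression scale is the deposited log2 scale, on which a gene with no reads has the value 3.81. A difference on it is a log2 fold change for well-expressed genes and understates the change of genes with few reads. Gene reads ranged from 8066662 to 21335933 per library. Tet2 reads, in which the construct and the targeted endogenous allele cannot be told apart, were higher with WT than with mutant TET2 by 2.16 in naïve and by 1.84 in primed ESCs, and fell by 1.71 from primed to naïve ESCs, so the Tet2 transcript level differed between all groups compared. Setdb1 was lower in naïve ESCs by -0.44 (limma, adjusted p = 0.0472), with values from 7.46 to 8.21 in naïve and from 7.52 to 8.55 in primed ESCs. The summed pluripotency markers lay between 2625 and 3681 RPM (recovered reads scaled to the total gene reads of a library) in all 12 libraries. Of the 5 primed markers 4 fell in naïve ESCs, among them Otx2 by 3.02 and Dnmt3b by 2.33. Of 5 naïve markers Tfcp2l1 (listed under the symbol Tcfcp2l1) rose by 2.55, Prdm14 by 1.63 and Klf4 by 0.32. Esrrb (-0.04) and Tbx3 (0.29) were not called. Zfp42 (Rex1), also known as a marker of the naïve state and counted here among the pluripotency markers, fell by 1.12, and Nanog rose by 0.48. Libraries of a group are labelled as replicates, but nothing says that they came from separate cultures, so p-values measure the spread between these libraries, which may be technical. Libraries of a group differed by more than sampling noise (chi-square per gene 11.9 to 62), so none was counted as the same library.

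Across media, Bmp4, Id1, Id2, Id3 and Smad7 fell in naïve ESCs of both rescue lines relative to primed ESCs, and Lefty2 rose. Lefty1 and Nodal also passed the test over both lines, Lefty1 higher and Nodal lower, but with groups that overlapped. The Lefty1 call was lost in an estimate that reassigned reads shared with Lefty2 and set 1 library to 0 Lefty1 reads. Tdgf1 did not pass. In limma with Benjamini-Hochberg adjustment over 14185 genes, 8 of the 9 genes were called at an adjusted p under 0.05, 2 higher and 6 lower, where 51.8% of all tested genes were called (26.4% higher and 25.4% lower). Within WT TET2 cells 2 were higher and 5 lower (35.9% of all genes called, 18.6% higher and 17.3% lower). Within mutant TET2 cells 1 was higher and 5 lower (35.2% of all genes called, 18.3% higher and 16.9% lower). In 6 of the 9 the naïve and primed libraries did not overlap over both lines, against 23.6% of all tested genes. Within WT TET2 cells 7 of the 9 did not overlap (50.0% of all genes), and within mutant TET2 cells 7 did not (43.5% of all genes). The median size of the difference was 2.04 in the 9 genes and 0.362 in all tested genes. Because the 9 genes were chosen with earlier results of these data known, these comparisons with all genes are descriptions and carry no test. All 9 passed the filter on low values, but the naïve means of Id1 (4.37) and Bmp4 (4.44) are below its limit of 4.81, so these genes passed through their primed values and had to differ. Id1 and Bmp4 are included in the counts and the median above.

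**Figure D1:**
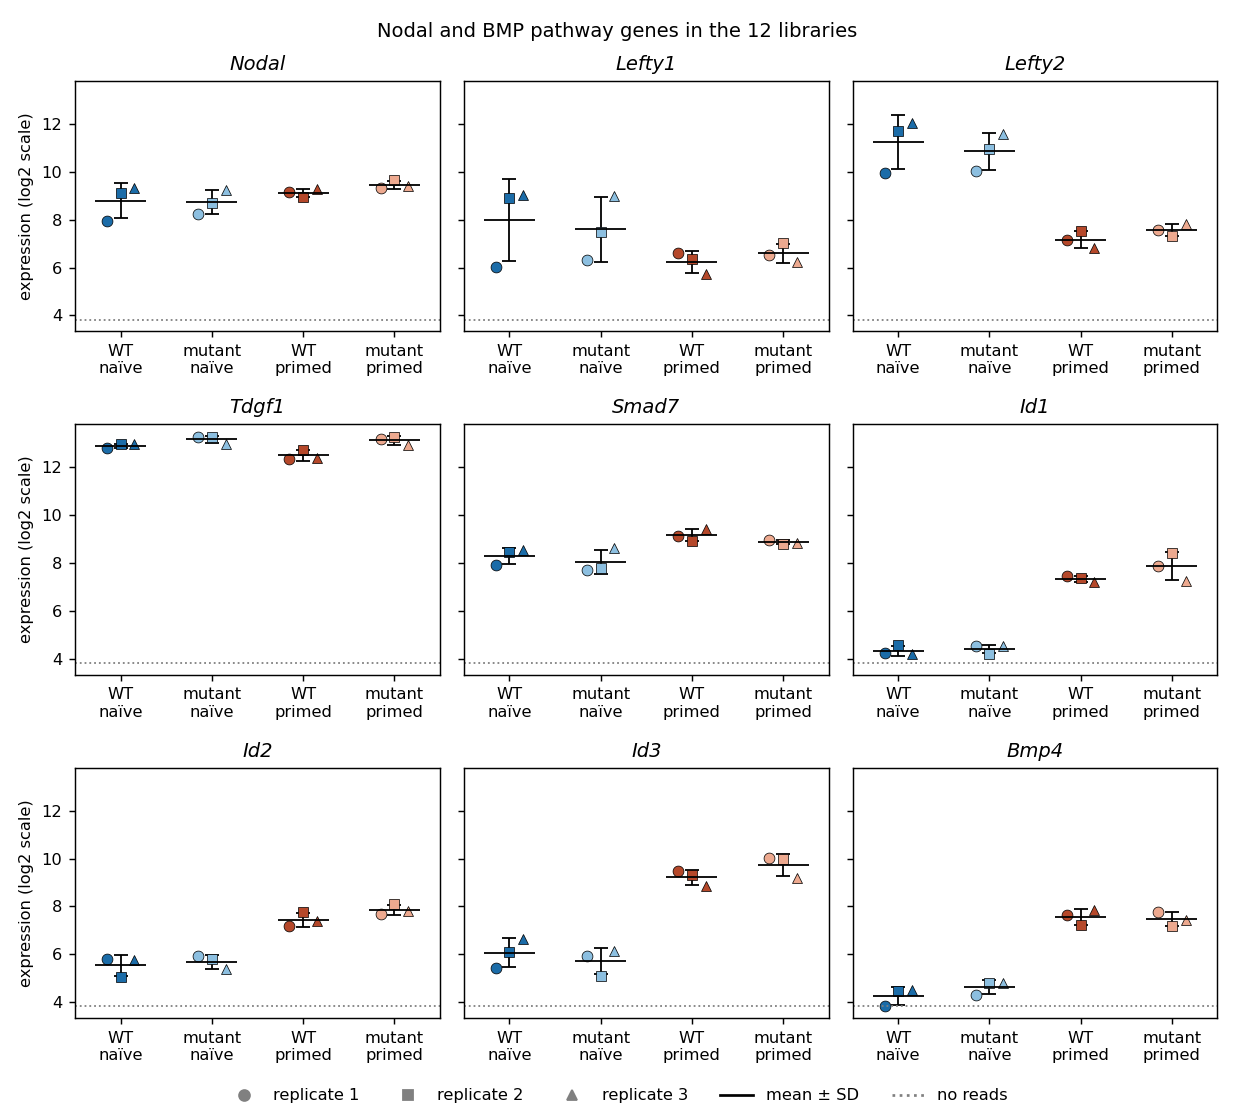
Expression of the 9 genes on the deposited log2 scale (y axis) in the 4 groups (x axis). Each symbol is 1 library, its shape gives the replicate number, bars are the mean ± SD of 3 libraries, and the dotted line is the value of a gene with no reads (3.81). Bmp4 and Id1 lie near that line in all naïve libraries, and Lefty2 is higher in every naïve library than in any primed library.

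Nodal, the ligand that patterns the early embryo, lies on chromosome 10 at 60880720-60888086 on the plus strand of mm9. It read 7.95, 9.11 and 9.33 in the naïve WT TET2 libraries and 8.26, 8.69 and 9.27 in the naïve mutant libraries. Primed values were 9.15, 8.94 and 9.27 with WT TET2 and 9.34, 9.66 and 9.41 with the mutant. The naïve libraries spread wider than the primed libraries, and the groups overlapped with WT TET2 but not with the mutant. Over both lines Nodal was lower in naïve ESCs by -0.53 ± 0.21 (SE, limma adjusted p = 0.0445, exact stratified permutation p = 0.09, two-sided). The difference was -0.32 with WT TET2 (adjusted p = 0.419) and -0.73 with mutant TET2 (adjusted p = 0.0646). The call over both lines was lost when any of 8 of the 12 libraries was left out, with adjusted p between 0.0125 and 0.1275 over the 12 fits. Without replicate 1 of both naïve groups the difference was -0.19 (adjusted p = 0.2916).

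Bmp4, the BMP ligand (chromosome 14, 47003195-47010344, minus strand), had 0, 3 and 3 reads in the naïve WT TET2 libraries and 2, 6 and 12 in the naïve mutant libraries. In primed ESCs it had 116, 100 and 381 reads with WT TET2 and 138, 111 and 139 with the mutant. Every primed library stood above every naïve library. On the log2 scale the naïve values were 3.81, 4.46 and 4.48 with WT TET2 and 4.31, 4.77 and 4.80 with the mutant. The primed values were 7.63, 7.20 and 7.84, and 7.76, 7.19 and 7.44. Bmp4 was lower in naïve ESCs by -3.07 ± 0.17 (SE, limma adjusted p = 6.686e-10, exact permutation p = 0.005, the smallest this design can give). Since Bmp4 passed the filter on low values through its primed values, it had to differ, and these p-values add no support. In size-factor-scaled reads summed over libraries, primed exceeded naïve 83.6-fold with WT TET2 (95% exact interval 38.2 to 229) and 28.7-fold with the mutant (18.3 to 47.6). These intervals, and those of all read ratios below, cover counting error only and not the spread between libraries. Reads from 89 exonic bases of Bmp4 that overlap antisense genes (Gm15217 and Gm15222) cannot be told apart, because the libraries kept no strand.

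Tdgf1, the Nodal co-receptor (chromosome 9, 110842114-110848662, minus strand), was the most abundant of the 9 genes in every group. Its naïve values were 12.82, 12.96 and 12.97 with WT TET2 and 13.26, 13.27 and 12.99 with the mutant. Its primed values were 12.37, 12.75 and 12.39 with WT TET2 and 13.19, 13.27 and 12.93 with the mutant. The 3 primed WT TET2 libraries were the lowest of the 12. Over both lines the difference between media was 0.23 (95% interval -0.01 to 0.47, adjusted p = 0.102), with 0.41 for WT TET2 (adjusted p = 0.0535) and 0.04 for the mutant (adjusted p = 0.862). Of the 75-base windows within its exons, 13.3% have an exact second copy on chromosome 16, and the authors placed reads with several equally good positions at random.

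Lefty1 and Lefty2 are neighbouring genes on chromosome 1 (Lefty1 at 182865153-182868531, Lefty2 at 182823239-182829234, both on the plus strand), and both encode secreted Nodal antagonists. Lefty2 read 9.97, 11.72 and 12.07 in naïve WT TET2 libraries and 10.04, 10.94 and 11.59 in naïve mutant libraries. In primed ESCs it read 7.16, 7.52 and 6.83 with WT TET2 and 7.58, 7.31 and 7.81 with the mutant. No naïve library came near the primed range. The difference was 3.69 ± 0.30 over both lines (SE, limma adjusted p = 5.670e-08, exact permutation p = 0.005), 4.08 with WT TET2 and 3.29 with the mutant. Summed over libraries, scaled reads of Lefty2 were 26.8-fold higher in naïve ESCs with WT TET2 (24.2 to 29.8) and 13.2-fold higher with the mutant (11.95 to 14.6). These intervals leave out the spread between libraries, and the naïve WT TET2 libraries held from 835 to 4142 Lefty2 reads.

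Lefty1 read 6.02, 8.93 and 9.03 in naïve WT TET2 libraries, and 6.30, 7.47 and 9.01 in naïve mutant libraries. In primed ESCs it read 6.62, 6.36 and 5.74 with WT TET2 and 6.55, 7.01 and 6.21 with the mutant. Replicate 1 of both naïve groups lay within the primed range, and the other 4 naïve libraries lay above it. The difference was 1.38 ± 0.47 over both lines (SE, limma adjusted p = 0.0209, exact permutation p = 0.08), 1.75 with WT TET2 (adjusted p = 0.0486) and 1.01 with the mutant (adjusted p = 0.253). The call over both lines was lost without WT naïve replicate 2 (1.15, adjusted p = 0.05815), WT naïve replicate 3 (1.12, adjusted p = 0.05467), mutant naïve replicate 3 (1.03, adjusted p = 0.06132) or WT primed replicate 3 (1.25, adjusted p = 0.0503). Without replicate 1 of both naïve groups, a choice made after the values were seen, it was 2.20 (adjusted p = 1.849e-05). The call within WT TET2 cells was lost when any of 5 of the 6 libraries was left out. Of the 75-base windows in Lefty1 exons, 13.3% have an exact copy in Lefty2, and 8.38% of those of Lefty2 have a copy in Lefty1. With even coverage and random placement of such reads, the number of Lefty2 reads expected among those of Lefty1 was 36.4, 149.3 and 180.2 in the naïve WT TET2 libraries, where Lefty1 had 34, 471 and 481 reads. In the naïve mutant libraries it was 53.0, 78.0 and 231.2 of 63, 139 and 852 reads. In the primed libraries it was 5.32% to 17.4% of the Lefty1 reads. All reads of Lefty1 in WT naïve replicate 1, and 84.1% of those in mutant naïve replicate 1, were thus within the number expected from Lefty2. Shared reads were reassigned on this basis, an estimate made after the values were seen. The Lefty1 difference was then 0.47 over both lines (limma adjusted p = 0.5943), 0.73 with WT TET2 and 0.20 with the mutant. That of Lefty2 was 3.73. The estimate for WT naïve replicate 1 fell below 0 and was set to 0 Lefty1 reads, which moved its value from 6.02 to 3.81. Mutant naïve replicate 1 moved from 6.30 to 4.94.

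**Figure D2:**
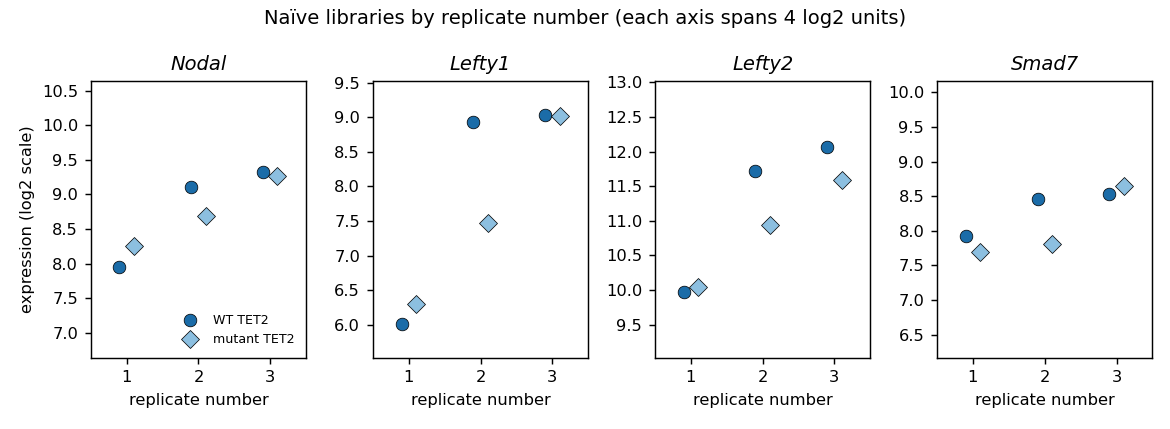
Expression on the log2 scale (y axis, each spanning 4 units) of Nodal, Lefty1, Lefty2 and Smad7 in the 6 naïve libraries by replicate number (x axis), with circles for WT TET2 and diamonds for mutant TET2. Replicate 1 is the lowest of its group in both lines for all 4 genes, as in Lefty2, at 9.97 and 10.04 against 10.94 to 12.07 in the others.

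Naïve replicate 1 was the lowest library of its group in both rescue lines for 5 of the 9 genes, namely Nodal, Lefty1, Lefty2, Smad7 and Bmp4, and for 18.6% of all tested genes. The values of Lefty1 include the reads shared with Lefty2. Among the naïve libraries Lefty1 ranged over 3.02 log2 units, Lefty2 over 2.10 and Nodal over 1.38. In primed ESCs the ranges were 1.27, 0.98 and 0.72. These patterns were noticed after the values were seen.

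Smad7, the inhibitory SMAD (chromosome 18, 75527183-75555589, plus strand), read 7.92, 8.47 and 8.53 in naïve WT TET2 libraries and 7.69, 7.81 and 8.64 in naïve mutant libraries. Primed values were 9.15, 8.93 and 9.44 with WT TET2 and 8.97, 8.81 and 8.83 with the mutant. All naïve values lay below all primed values of their line. The difference was -0.85 ± 0.17 over both lines (SE, limma adjusted p = 0.000502, exact permutation p = 0.005), -0.87 with WT TET2 (adjusted p = 0.00916) and -0.82 with the mutant (adjusted p = 0.0128). The call with WT TET2 was lost without WT primed replicate 3 (-0.73, adjusted p = 0.05274). With the mutant it was lost without naïve replicate 1 (-0.65, adjusted p = 0.07431) or naïve replicate 2 (-0.70, adjusted p = 0.0636).

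Id1, Id2 and Id3, the E protein inhibitors induced by BMP, all fell in naïve ESCs of both lines. Id1 (chromosome 2, 152561987-152563146, plus strand) had 1, 4 and 1 reads in naïve WT TET2 libraries and 4, 1 and 6 in naïve mutant libraries. In primed ESCs it had 102, 115 and 230 reads with WT TET2 and 153, 294 and 119 with the mutant. The lowest primed value on the log2 scale was 7.22 and the highest naïve value 4.56. The difference was -3.24 ± 0.17 (SE, limma adjusted p = 4.840e-10, exact permutation p = 0.005). Like Bmp4, Id1 passed the filter on low values through its primed values and had to differ, so these p-values add no support. Primed scaled reads exceeded naïve 62.6-fold with WT TET2 (28.5 to 171) and 76.2-fold with the mutant (42.3 to 154). With limma-voom on the recovered reads, which does not compress low counts, the difference was -6.01 for Id1 and -5.69 for Bmp4.

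Id3 (chromosome 4, 135699412-135701670, plus strand) read 5.44, 6.11 and 6.65 in naïve WT TET2 libraries and 5.91, 5.10 and 6.14 in naïve mutant libraries. Primed values were 9.46, 9.31 and 8.85 with WT TET2 and 10.03, 9.97 and 9.20 with the mutant. Every primed library was above every naïve library, by at least 2 log2 units. The difference was -3.58 ± 0.23 over both lines (SE, limma adjusted p = 2.995e-09), -3.14 with WT TET2 and -4.01 with the mutant. Scaled reads were 11.2-fold higher in primed ESCs with WT TET2 (9.39 to 13.4) and 24.3-fold higher with the mutant (20.4 to 29.2).

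Id2 (chromosome 12, 25778666-25780957, minus strand) kept the most reads of the 3 in relation to its primed level. It read 5.81, 5.03 and 5.73 in naïve WT TET2 libraries and 5.91, 5.78 and 5.36 in naïve mutant libraries. In primed ESCs it read 7.17, 7.76 and 7.39 with WT TET2 and 7.67, 8.10 and 7.79 with the mutant. The groups did not overlap. The difference was -2.04 ± 0.17 (SE, limma adjusted p = 6.150e-08), and scaled reads were 6.39-fold higher in primed ESCs with WT TET2 (4.93 to 8.39) and 7.92-fold higher with the mutant (6.39 to 9.89). The calls of Id2, Id3, Lefty2 and Smad7 over both lines held in all 21 alternatives. So did those of Id1 and Bmp4, which had to differ.

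**Figure D3:**
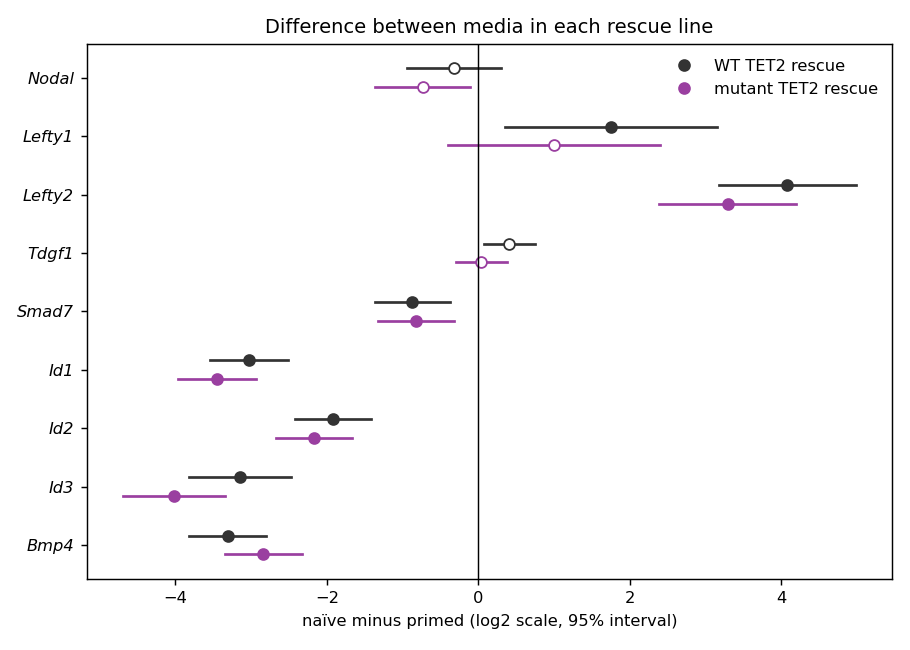
Difference between naïve and primed ESCs (x axis, naïve minus primed on the log2 scale) for each of the 9 genes (y axis) in WT TET2 and mutant TET2 cells. Points are limma estimates with 95% intervals, filled where the adjusted p is under 0.05. Lefty2 lies near 4.08 and 3.29, and the Id genes and Bmp4 lie between -1.91 and -4.01.

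Markers of other cell types were also compared between media, where 51.8% of all tested genes were called (26.4% higher and 25.4% lower). The summed level of 5 trophoblast markers was 0.567 to 3.22 RPM in naïve and 8.89 to 19.3 in primed libraries, with 1 of the 2 tested called lower (Gata3, at 0 reads in all 6 naïve libraries). The 5 streak and mesoderm markers summed to 4.99 to 10.4 in naïve and 10.7 to 17.3 in primed libraries, with 1 called higher and 1 lower. For 7 primitive endoderm markers the sums were 3.33 to 6.94 and 4.79 to 8.80, with 1 of the 3 tested called lower (Dab2). Gata3 and Dab2 passed the filter through their primed values and had to differ. The 3 neural markers in the table summed to 52.6 to 88.5 and 63.6 to 96.1, with 1 called lower. The primitive endoderm and the neural sums overlapped between media. Of 5 fibroblast markers, none of which passed the filter, Col1a2, Col3a1, Dcn and Postn were at 0 reads in all libraries. In bulk RNA, more cells of a type and more RNA per cell cannot be told apart, and the part of these markers, and of the lower Setdb1 and Tet2 levels, in the differences between media was not tested.

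Levels of different genes were compared per length, as recovered reads per exon length and gene total (RPKM). In naïve ESCs the order was Tdgf1 (332 RPKM with WT TET2, 401 with the mutant), then Lefty2 (90.1 and 64.9), with no overlap between these neighbours. Nodal (17.8 and 16.8), Lefty1 (15.5 and 11.2, shared reads included) and Smad7 (5.38 and 4.65) followed, and neighbours in this run overlapped. Id3 (2.11 and 1.46) and Id2 (1.55 and 1.83) overlapped each other, and so did Id1 (0.145 and 0.191) and Bmp4 (0.0738 and 0.190) at the bottom. In primed ESCs Tdgf1 (260 and 388) again led, followed by Id3 (27.4 and 39.4) and Nodal (21.8 and 27.2), which overlapped. Id1 (10.1 and 15.6), Id2 (10.1 and 13.5) and Smad7 (10.6 and 8.11) came next, and Bmp4 (6.36 and 5.69), Lefty2 (3.93 and 5.24) and Lefty1 (2.55 and 3.46) were last, with overlap between neighbours. Lefty2 thus moved from the second place to the eighth, and Id3 to the second.

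The comparison of rescue lines asked whether the catalytic activity of TET2 goes with the level of these genes. None of the 9 was called between WT and mutant TET2 in naïve ESCs (0.0987% of all genes called) or in primed ESCs (0.254% of all genes called). This fit did not pair libraries by number, and with such pairing 0 of the 9 were called in either medium. At an unadjusted p under 0.05, limma gave 0 of the 9 in naïve ESCs (13.3% of all genes) and 1 in primed ESCs (16.2% of all genes). That gene was Tdgf1, lower with WT TET2 in primed ESCs by -0.63 (95% interval -0.96 to -0.29, limma adjusted p = 0.135, exact permutation p = 0.1, the smallest for 3 against 3). In naïve ESCs it was lower in 3 of 3 same-numbered pairs, and the difference was -0.26 (interval -0.59 to 0.08, limma adjusted p = 0.489). Bmp4, with few reads in naïve ESCs, was also lower with WT TET2 in 3 of 3 naïve pairs (-0.50, -0.31 and -0.32). The groups did not overlap for Tdgf1 in naïve ESCs, as for 16.8% of all genes. For the other 8 genes the intervals included 0 in both media. They were widest for Lefty1, -1.004 to 1.80 in naïve and -1.75 to 1.05 in primed ESCs. For Id1, Id2 and Id3 in primed ESCs the differences were -0.51 (-1.02 to 0.01), -0.41 (-0.92 to 0.09) and -0.52 (-1.20 to 0.15). Nodal was at -0.35 (-0.98 to 0.28) in primed ESCs. Nodal and Tdgf1 did not overlap between the primed lines, as 22.4% of all genes did not.

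**Figure D4:**
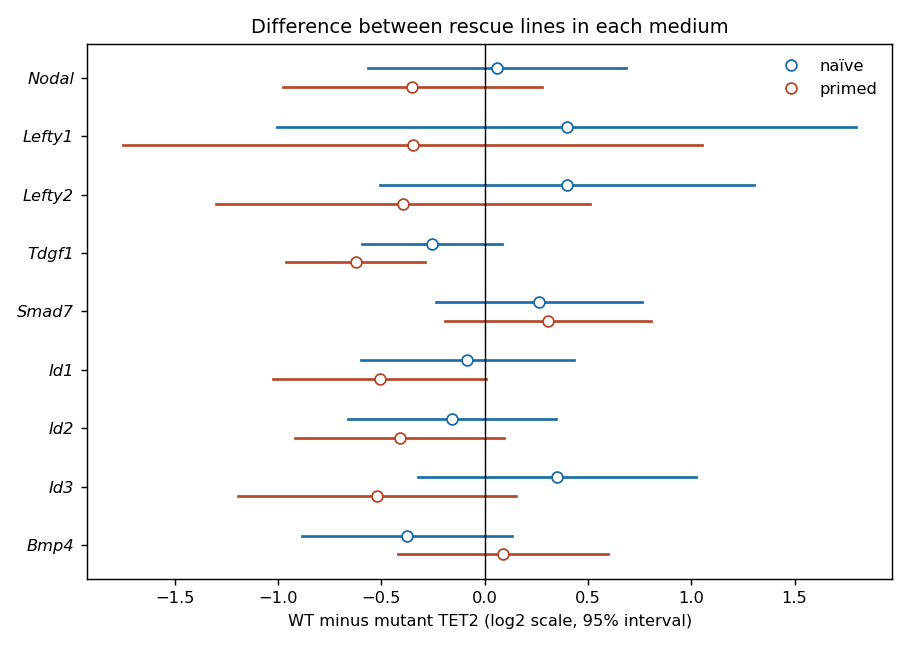
Difference between rescue lines (x axis, WT minus mutant TET2 on the log2 scale) for each of the 9 genes (y axis) in naïve and primed ESCs. Points are limma estimates with 95% intervals, and all are open because no adjusted p is under 0.05. The interval of Tdgf1 in primed ESCs, -0.96 to -0.29, is the only one of the 18 that leaves out 0.

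Whether the response to medium depended on the rescue line was tested as an interaction. No gene of the 9 was called, where 0.00% of all genes were called. At an unadjusted p under 0.05, limma gave 0 of the 9 and 3.45% of all genes. The largest interaction was that of Id3, whose difference between media was 0.87 smaller in size with WT than with mutant TET2 (95% interval -0.08 to 1.82, limma adjusted p = 0.976). Lefty2 gave 0.79 (-0.49 to 2.07) and Lefty1 0.74 (-1.24 to 2.73).

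Of 65 other genes listed for the Nodal and BMP pathways, 64 were in the table under the symbol searched, and 47 of these passed the filter. Between media 14 of the 47 were higher in naïve ESCs, 8 were lower and 25 were not called, with a median difference of 0.00, against 51.8% of all genes called. Between rescue lines 0 of 47 were called in either medium, where 0.0987% of all genes were called in naïve and 0.254% in primed ESCs.

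In the Nodal list, 5 of 23 tested genes were higher and 4 lower in naïve ESCs, where 26.4% of all tested genes were higher and 25.4% lower. Among ligands and the proteases that process them, Pcsk6 (1.88 ± 0.16 SE) and Furin (1.00 ± 0.13), which cleave pro-Nodal, rose. Inhbb, an activin subunit, fell by 1.22 ± 0.15 and Gdf3, a Nodal-related ligand, by 0.45 ± 0.11. Pcsk6 ranged from 9.41 to 10.01 in the naïve libraries and from 7.50 to 8.48 in the primed libraries, without overlap. Of the 3 tested antagonists, Fst, the activin-binding follistatin, rose by 1.17, and its relative Fstl3 fell by 0.86, with 1157 exonic bases shared with Prss57. None of the 3 tested receptors (Acvr1b, Acvr2a, Acvr2b) was called, and of 8 mediators Drap1, a co-repressor of FOXH1, was called, 0.51 higher. Smad2 (-0.20), Smad3 (-0.29), Smad4 (0.00) and Foxh1 (-0.22) did not pass. Among 4 tested targets Eomes, a mesendoderm factor, fell by 1.51 and Gsc rose by 0.95.

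In the BMP list, 9 of 24 tested genes were higher and 4 lower in naïve ESCs, against 26.4% of all tested genes higher and 25.4% lower. Bmp7 was the ligand called among 4 tested, 1.77 ± 0.18 higher, with values from 6.86 to 7.95 in naïve and from 5.57 to 5.86 in primed libraries. Its direction was opposite to that of Bmp4. Among 5 tested receptors, the co-receptor Rgma rose by 2.75 ± 0.16, from 4.90 to 5.66 in the primed libraries to 7.82 to 8.56 in the naïve libraries, and 1 other, Acvr1, rose by 0.65. Chrd, which sequesters BMPs, was 1.04 higher, while the decoy receptor Bambi fell by 1.20 and the inhibitory Smad6 fell by 1.01, in the direction of Smad7. The mediator Smad9 rose by 1.16 and Zfp423, a SMAD partner, fell by 1.95. All 3 tested targets beside the members were called, Msx2 lower by -1.45 and Msx1 and Id4 higher by 0.95 and 0.54. The primed means of Chrd (4.71) and Msx1 (4.61) and the naïve mean of Msx2 (4.56) are below the filter limit of 4.81, so these 3 genes passed the filter through the medium in which they are high and had to differ. Id4 was named after its value was seen, because it is the other Id family gene and its direction was opposite to that of Id1, Id2 and Id3. Of the 2 tested E protein genes, Tcf4 was 0.57 higher and Tcf12 (-0.16) was not called. Tcfe2a, also listed, was absent under that symbol. Tcf3, which may be another symbol of the same gene, was not counted and differed by 0.007 (limma adjusted p = 0.966).

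**Figure D5:**
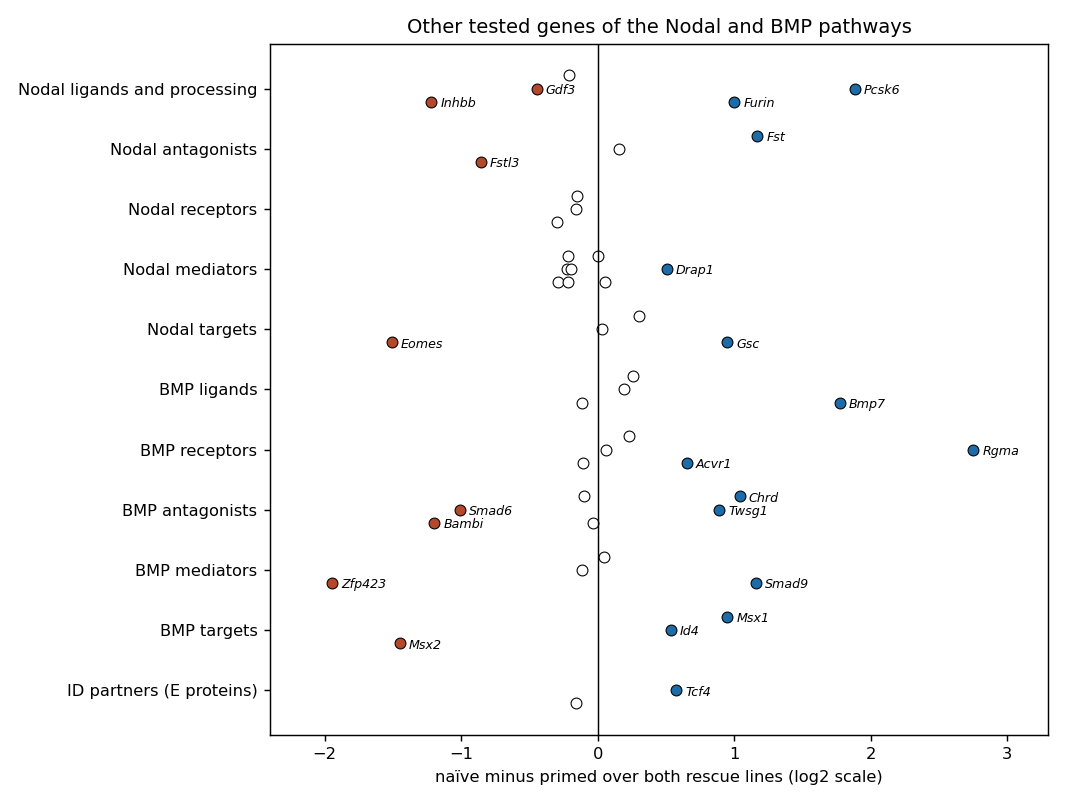
Difference between naïve and primed ESCs over both rescue lines (x axis, log2 scale) of the 47 tested pathway genes other than the 9, grouped by role (y axis). Each point is 1 gene, filled and named where the adjusted p is under 0.05 (blue higher, red lower in naïve ESCs), and vertical offsets within a role only separate points. Rgma is the highest at 2.75 and Zfp423 the lowest at -1.95.

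By Pearson correlation over the 12 libraries, the genes most like Nodal were Manf (r = 0.958), 1110002L01Rik (r = 0.938) and Mgat2 (r = 0.928). After removal of group means their r with Nodal was 0.934, 0.911 and 0.904, so most of this likeness lay between libraries of the same group. For Id1 they were Hmgxb4 (r = 0.990), Fgfbp1 (r = 0.990) and Mkrn1 (r = 0.988), with 0.620, 0.744 and 0.447 within groups. The 12 libraries fall into the 2 media, so these correlations are descriptions of the shared libraries and carry no test.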

How the data were processed

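Mouse ESC libraries were grouped by their labels (4 groups of 3). Per the labels and methods, the authors trimmed 75-base single-end reads with Trim Galore 0.3.3, aligned them to mm9 with TopHat2 2.0.9, placing each multi-mapping read at 1 of its positions at random, and counted reads per gene. The authors deposited DESeq2 variance-stabilised values on a log2 scale, with size factors included. A deposited table of repeats, normalised separately, was not used.

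The transformation was inverted for reads and depth, and 100% of values were whole within 0.01. Genes with a mean at least 1 above the minimum of 3.81 were tested with limma 3.58.1 (R 4.3.3), with a variance trend, 4 groups in 1 fit and Benjamini-Hochberg adjustment, at an adjusted p under 0.05. Single values had exact two-sided permutation tests, where 3 against 3 cannot go below 0.1 and the test within both lines cannot go below 0.005. Read ratios have exact binomial intervals on summed reads, which leave out the spread between libraries. Gene coordinates and exon lengths are from GENCODE for mm9, and copies were sought with exact 75-base windows. Tables and figures were made with Python 3.11.15, numpy 2.4.6, pandas 2.3.3, scipy 1.17.1 and matplotlib 3.10.9. On simulated data with normally distributed noise, 200 of 14185 genes were changed between media in both lines. In the comparison of media over both lines, 92% of those changed by 1 and 100% of those changed by 2 were recovered. Recovery in the comparisons of rescue lines, in the interaction and within single lines was not simulated.

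Same-numbered naïve libraries of the 2 lines deviated together (r from 0.300 to 0.586 in 3 pairs), so differences within these pairs were also read. Those of primed lines (-0.0652 to 0.189) and of the media were not taken as pairs. The main fit and the permutation tests used no pairing, which entered a fit only through the replicate block below. The alternatives were other filters, no trend, quantile normalisation, limma-voom, the compared groups alone, a replicate block, a stricter threshold and each library left out. Added after the values were seen were a fit without replicate 1 of both naïve groups and a fit with reads shared by Lefty1 and Lefty2 reassigned to their expected gene.

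The genes and lists were chosen with earlier results of these data known. Named pathway genes are up to 5 per list and direction with the largest differences between media among those called, and the 3 genes most like Nodal and Id1. Acvr1, Tcf4, Tcf12, Tcf3, Smad2, Smad3, Smad4, Foxh1 and the receptors were named after their values were seen.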

Additional observations from a re-analysis of the deposited data

How the results depend on the processing

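Lefty2, Smad7, Id2 and Id3 kept direction and call over both lines in all 21 alternatives. So did Bmp4 and Id1, which passed the filter through their primed values and had to differ. Of 945 values of single genes, 884 kept direction and side of the threshold, 31 lost a call, 7 gained 1 and 23 changed sign, none of them called.

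The changes of sign were these, all on the log2 scale. With quantile normalisation Tdgf1 between media in mutant TET2 cells was -0.0823 and Id1 between lines in naïve ESCs was 0.0645. Without replicate 1 of both naïve groups Nodal between media in WT TET2 cells was 0.10, Tdgf1 in mutant cells -0.00062 and Id1 between naïve lines 0.0171. With single libraries left out, Nodal between media in WT TET2 cells ranged from -0.59 to 0.10 and Tdgf1 in mutant cells from -0.0599 to 0.134. Between naïve lines the ranges were -0.21 to 0.49 for Nodal, -0.25 to 1.38 for Lefty1, -0.0132 to 1.04 for Lefty2 and -0.320 to 0.0882 for Id2. Bmp4 between primed lines ranged from -0.0518 to 0.267, and the interaction of Smad7 from -0.22 to 0.25. The causes were not tested.

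With the replicate block, that is the pairing by number, 2 of the 47 tested pathway genes were called between primed lines, where 209 of 14185 genes were called. Without the block 0 were called, and 0 to 1 with single libraries left out. The primed libraries were not taken as pairs elsewhere (same-numbered r from -0.0652 to 0.189). With the block Tdgf1 between primed lines had a limma adjusted p of 0.0551. In mutant cells Nodal between media had 0.0372, and was also called with the compared groups alone (0.0269) and without mutant naïve replicate 3 (0.0200). The block changed no other call of the 9 genes. Over all genes, the block called 36 between naïve lines (14 without it) and 209 between primed lines (36 without it). The compared groups alone gave 9 and 18, no filter gave 9 between naïve lines, an adjusted p under 0.01 gave 6 and 13, and the fit without replicate 1 of both naïve groups gave 5 between naïve lines. At that stricter threshold, 3096 genes in WT and 2989 in mutant cells differed between media, against 5095 and 4993.

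Lefty1 between media in WT TET2 cells lost its call in 11 of 16 alternatives, with adjusted p from 0.000131 to 0.584, the highest with reads shared with Lefty2 reassigned. Without replicate 1 of both naïve groups Lefty1 was called in mutant cells (0.00556) and Smad7 was not (0.0526). Tdgf1 between media in WT cells was called with limma-voom (0.0467) and without WT primed replicate 2 (0.0277), which also gave a call over both lines (0.0499). Few reads of Id1 and Bmp4 in naïve ESCs limit the precision of their ratios.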
